A study of Mus musculus with 2 samples.

Results

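Conventional dendritic cells type 2 (cDC2) were taken from 2 libraries of spleen immune cells. The first library came from WT spleen and the second from spleen of the genotype RPA1 conditional knockout (CKO), both on strain C57BL/6. Of 26249 barcodes, 25289 held 200 to 6000 detected genes and under 10% mitochondrial UMIs, and 114 of these met the rule for cDC2, 55 in WT and 59 in CKO spleen. The rule asked for a UMI in at least 2 of Cd209a, Clec10a, Clec4a4, Zbtb46, Itgax and Flt3, for at least 5 UMIs of the MHC class II gene H2-Aa, for no UMI of Xcr1, Clec9a, Ace, Treml4, Siglech, Cd3d or Cd3e, and for at most 1 UMI of the B cell gene Cd79a. Immune cells of the spleen had been profiled by 10x Genomics Chromium 3′ sequencing, in which each UMI stands for 1 captured transcript molecule. The series is titled as a study of RPA1 in T cells, and the comparison made here asks how cDC2 of the knockout spleen differed from those of the WT spleen. The labels give neither the Cre driver nor the deleted exons, the age or the sex of the mice, and they do not say whether animals were pooled. Nothing in them says in which cells the gene was deleted.

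Dendritic cells take up antigen, cut it into peptides and show these on MHC molecules to T cells. The conventional type 2 cells present mainly on MHC class II to CD4 T cells, carry SIRPα on their surface and need the transcription factor Irf4, while the type 1 cells need Irf8 and Batf3, carry XCR1 and CLEC9A and are specialised in cross-presentation on MHC class I. In the mouse spleen, cDC2 include cells with Esam and Clec4a4 that depend on Notch2 signalling, and cells with Clec10a, Clec12a and Cx3cr1 that share genes with monocytes. Replication protein A, of which RPA1 is the largest chain, coats single-stranded DNA when chromosomes are copied or repaired and recruits the ATR checkpoint kinase there.

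The WT library held 84240951 UMIs over 13291 barcodes and the CKO library 76910129 over 12958, and 36 barcode sequences occurred in both libraries, none of them among cDC2. The cDC2 were deeper than the average cell, with a median of 9224 UMIs in WT and 8922 in CKO spleen against 5520 and 4690 over all cells past the filter. Summed over cDC2 there were 547997 UMIs in WT and 531952 in CKO spleen, and levels are given as counts per 1000000 UMIs (CPM) of these sums. Each genotype has 1 library, so no difference has a replicate check and none was tested. Intervals are exact at 95%. Intervals and floors reflect counting error only, and the values describe these libraries. A doublet score marked 9 of the 55 WT cDC2 and 0 of the 59 CKO cDC2, and 1 WT cell held 1428 of the 1430 WT UMIs of S100a8, a neutrophil calprotectin subunit. Values without these cells are given where they differ.

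The steps of the rule left more WT than CKO cells before the clause of 7 genes at 0, and similar numbers after it. At least 2 of the 6 genes were found in 212 WT and 182 CKO cells, the H2-Aa minimum kept 184 and 157, the 7 genes required at 0 kept 69 and 73, and the Cd79a limit kept 55 and 59. The H2-Aa minimum lay far below the members, whose lowest, median and highest H2-Aa counts were 22, 82 and 199 UMIs in WT and 26, 75 and 171 in CKO cells. Just inside the gene threshold, cells with exactly 2 of the 6 genes numbered 20 and 30, and just outside it, 16 WT and 15 CKO cells had 1 gene and met every other clause. Those outside cells measured 168 CPM of Sirpa in the WT and 197 CPM in the CKO library, close to the 173 and 184 CPM of the cells just inside. No cell failed on 2 Cd79a UMIs, and the 14 cells in each library with 3 or more held 744 and 820 CPM of the B cell gene Cd79b. Cells with H2-Aa at 1 to 4 UMIs but otherwise within the rule numbered 0 and 5.

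Genes outside the rule were compared with the label. Sirpa, the gene of the receptor that marks cDC2, was found in 46 of 55 WT and 43 of 59 CKO members, at 224 and 196 CPM. It was at 0 in cells gated as cDC1 (19 WT cells) and at 29.2 CPM in the 17 cDC1 of the CKO library. Irf4 was at 34.7 CPM in the WT and 35.7 CPM in the CKO library, and was at 0 in cDC1 of both. Irf8, the cDC1 and pDC factor, stood at 31.0 and 73.3 CPM in cDC2 against 1670 and 1830 CPM in cDC1. Cst3, which dendritic cells and monocytes express, was at 1673 and 1899 CPM in cDC2 and at 22449 and 17134 CPM in cDC1. Cbfa2t3, a corepressor, measured 464 and 498 CPM, Cd7 345 and 346 CPM, and Ffar2, a receptor for short-chain fatty acids, 288 and 316 CPM. Cd7 did not set cDC2 apart from cells gated as pDC, where its level was higher in both libraries, as given at the end. The 15 cDC2 markers summed to 2874 CPM in WT and 3042 CPM in CKO members, against 718 and 727 CPM in cDC1. Part of that sum was chosen by the rule. Of the 9 markers outside it, Sirpa, Cd7, Ffar2, Ltb and Cbfa2t3 were each found in at least 40 WT and 38 CKO members. Irf4, Klri1 and Tnfrsf11a were each found in 9 to 12 WT and 13 to 15 CKO members, and Mgl2 in 1 cell of each library. Every member of either library had a UMI of at least 1 of the 9 markers outside the rule, with a lowest cell at 386 CPM in the WT and 469 CPM in the CKO library.

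**Figure D1:**
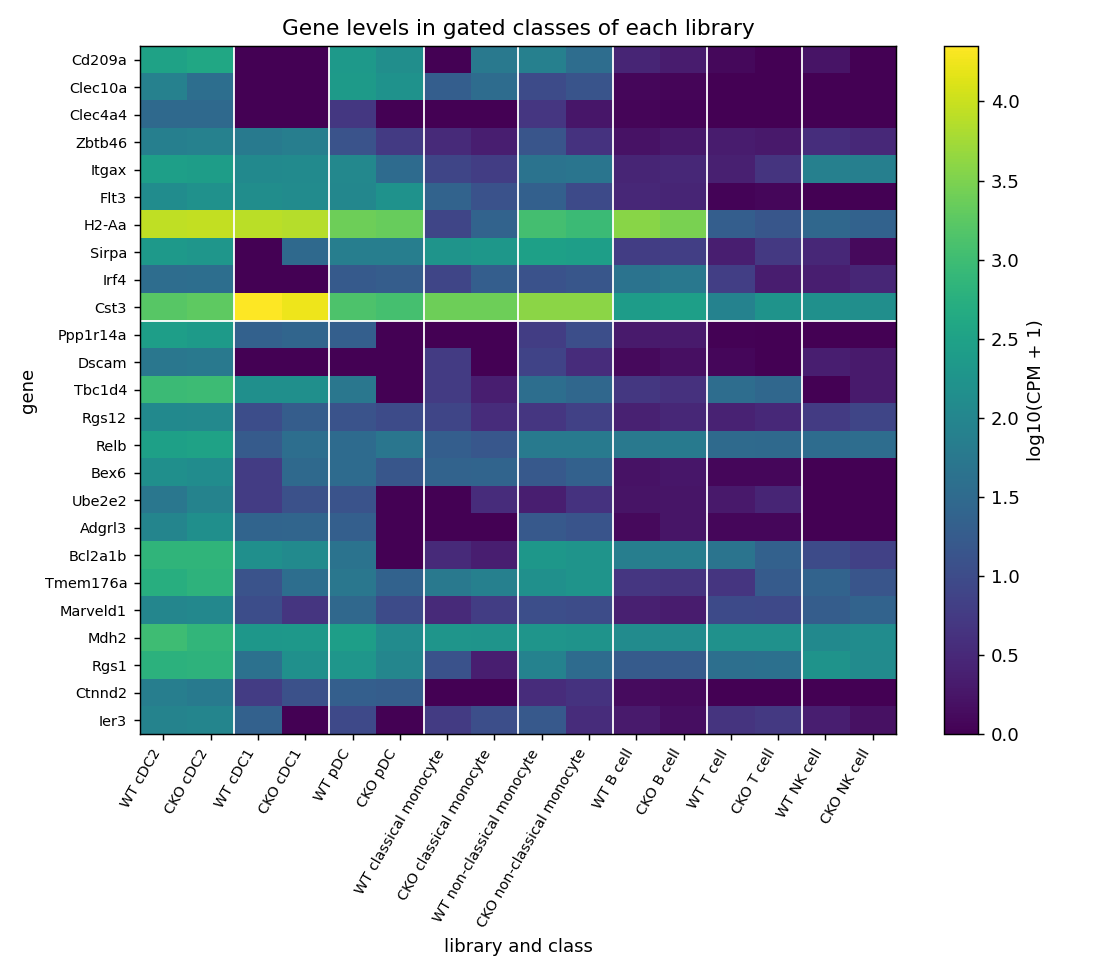
Levels of 25 genes, as log10(CPM + 1) by colour, in cells gated into 8 classes in the WT and CKO library. The upper 10 rows are markers, 7 of them part of the rule, and the lower 15 are the genes with the largest ratio of cDC2 to the highest other class; Tbc1d4 at 918 and 959 CPM and Relb at 301 and 316 CPM are bright in cDC2 of both libraries.

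Genes that set cDC2 apart from the other gated classes were chosen on both libraries together, so their agreement between the libraries was built into the choice. They were ranked by the lower of the 2 libraries' ratios to the class where the gene was next highest, among genes with at least 50 CPM in cDC2 of both libraries. Ppp1r14a, which encodes an inhibitor of myosin phosphatase, measured 279 CPM in the WT and 233 CPM in the CKO library, 12.8 and 9.12 times its level in cDC1, the next class. Tbc1d4, a Rab GTPase activator of vesicle traffic, measured 918 and 959 CPM, 6.41 and 6.56 times cDC1. Relb, the NF-κB subunit that cDC2 of the spleen require, measured 301 and 316 CPM, 5.08 and 5.17 times the next class. It was found in 44 WT and 44 CKO members, 80.0% and 74.6%. Dscam, Rgs12, Bex6, Ube2e2, Adgrl3, Bcl2a1b, Tmem176a, Marveld1, Mdh2, Rgs1, Ctnnd2 and Ier3 completed the 15. No gene of the rule was among them. This ranking describes cells that the same counts selected and compares them with 9 other gates, each with its own rule.

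Klrd1, best known as the NK receptor chain CD94, was found in 37 of 55 WT and 39 of 59 CKO members, at 350 and 368 CPM, while Klrb1c, a defining NK gene, had no UMI in either library. After thinning each cell to 2000 UMIs, 38.2% of WT and 39.0% of CKO members still had a Klrd1 UMI, against 0.801% and 1.31% of B cells, which had a median of 4683 and 4497 UMIs before thinning. The 10 NK markers summed to 369 and 513 CPM, most of it Klrd1, and 1 CKO cell held 30.8% of the CKO sum.

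Markers of other cells were summed over the members of each library. The 10 neutrophil markers summed to 8639 CPM in WT and 62.0 CPM in CKO members, and 99.5% of the WT sum came from the 1 cell with S100a8. Classical monocyte markers summed to 2195 and 684 CPM, of which Lyz2, the lysozyme gene, gave 1664 and 314 CPM, and 24 of 55 WT and 22 of 59 CKO members had none of these 10 genes. B cell markers summed to 131 and 220 CPM, T cell markers to 124 and 147 CPM, mostly Cd4, and cDC1 markers to 314 and 353 CPM, mostly Wdfy4. The pDC markers summed to 414 and 506 CPM. Plasma cell, erythroid, red pulp macrophage and non-classical monocyte markers summed to 106 and 79.0, 98.5 and 33.8, 151 and 180, and 431 and 387 CPM. The B, T, cDC1, pDC and non-classical sums include genes that the rule itself holds at 0 or at most 1 UMI per cell (Cd79a, Cd3d, Cd3e, Xcr1, Clec9a, Siglech, Ace and Treml4), so these sums are in part set by the rule. In the CKO library 1 member held 28 of the 39 Irf8 UMIs and 208 of the 1010 Cst3 UMIs, genes that are high in cDC1, but no UMI of the cDC1 genes Xcr1 or Clec9a, which the rule excludes.

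Within cDC2, no cell held UMIs of both Clec4a4 and Clec10a. Both are genes of the rule and were found in few cells, so this says little about whether they exclude each other. Clec4a4 encodes the lectin DCIR2, which the 33D1 antibody binds, and Clec10a encodes a galactose-binding lectin. Clec4a4 without Clec10a was found in 13 WT and 14 CKO cells (23.6% and 23.7%), Clec10a without Clec4a4 in 6 and 4 cells (10.9% and 6.78%), both in 0 of 55 and 0 of 59 cells, which allows a share of up to 6.49% and 6.06%, and neither in 36 and 41. The share with a Clec4a4 UMI in B cells was 0.0726% and 0.0531%. Counts were sparse, with 16 Clec4a4 UMIs in each library, so absence in a cell often means that no molecule was captured.

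The genes outside the rule named next were picked because Clec4a4 and Clec10a cells differed in them in the same direction in both libraries. Their agreement was thus built into the choice, and how many other genes agreed or went opposite ways is not given here. The Clec4a4 cells carried Tbc1d4 at 1238 CPM in the WT and 1024 CPM in the CKO library, against 0 and 21.7 CPM in the Clec10a cells. Kit, the receptor of stem cell factor, stood at 239 and 242 CPM against 0 in the Clec10a cells of both libraries, and Ffar2 at 395 and 494 CPM against 15.2 and 0 CPM. Ltb, a lymphotoxin subunit, stood at 709 and 745 CPM against 0 and 65.0 CPM. The Clec10a cells instead carried Lyz2 at 8689 and 2102 CPM, against 7.46 and 8.98 CPM in the Clec4a4 cells. Of the 573 Lyz2 UMIs in the WT Clec10a cells 511 lay in 2 cells, and the other 4, with 10 to 23 UMIs each, stood at 1391 CPM. Ccr2, the receptor with which monocytes leave the bone marrow, stood at 713 and 997 CPM against 0 and 26.9 CPM. Every one of the 6 WT and 4 CKO Clec10a cells had a UMI of Lyz2, Ahnak, Ccr2, Crip1 and Ccl6. H2-DMb2, a chain of the peptide-loading factor H2-DM, was at 0 and 65.0 CPM in the Clec10a cells and at 425 and 503 CPM in the Clec4a4 cells, although H2-Aa differed little, at 9386 and 10272 against 8005 and 8629 CPM.

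The number of Cd209a UMIs, which encode a homologue of the lectin DC-SIGN (Cd209a, mm10 chromosome 8, 3743397 to 3748984, minus strand), split the cells along similar genes, with more cells on each side. There were 27 WT and 30 CKO members with no Cd209a UMI, 14 and 12 with 1 or 2, and 14 and 17 with 3 or more. Every Clec10a cell of both libraries had 3 or more Cd209a UMIs. The Cd209a-rich cells thus include all Clec10a cells, and the likeness of the splits is in part the same cells counted again. Ccr2 (chromosome 9, 124101950 to 124113557, plus strand) measured 446 CPM in the WT and 499 CPM in the CKO cells with 3 or more, and 3.86 and 3.92 CPM in those with none, from 1 UMI in each library. Ahnak, Crip1, Lgals1, Lgals3, Ccl6, Ccl9, Fn1 and the inhibitory Fc receptor gene Fcgr2b were higher in the Cd209a-rich cells too. Irf8 also lay there, at 99.2 and 217 CPM against 3.86 and 0 CPM, with 6 cells carrying it in each library. In the CKO library 1 of these cells held 28 Irf8 UMIs and the others 1 to 4 each, and the WT cells held 1 to 5 each. Cx3cr1, the fractalkine receptor, measured 254 and 170 CPM against 23.1 and 27.5 CPM.

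Cells with no Cd209a UMI were higher in Dtx1 and H2-Eb2. Dtx1 (chromosome 5, 120680202 to 120711927, minus strand), a Notch target, measured 189 CPM in the WT and 200 CPM in the CKO library against 6.20 and 17.6 CPM in the Cd209a-rich cells. H2-Eb2, a less common MHC class II beta chain, measured 231 and 231 CPM against 18.6 and 23.5 CPM. Cd4 measured 88.7 and 78.4 CPM against 31.0 and 41.1 CPM, with counting intervals that reach 1 in the CKO library. Esam gave only 5 against 0 counts in the WT and 9 against 1 in the CKO library, and Tbx21, the gene of T-bet, 3 against 0 and 4 against 1, so no difference in them was detectable at this depth. Median depth differed between the kinds of cell, at 11430.5 and 9907 UMIs in the Cd209a-rich and 7866 and 8532.5 UMIs in the other cells, and its part in the split was not tested. H2-Aa itself was at 9331 against 7730 CPM in the WT and 8583 against 8767 CPM in the CKO library.

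**Figure D2:**
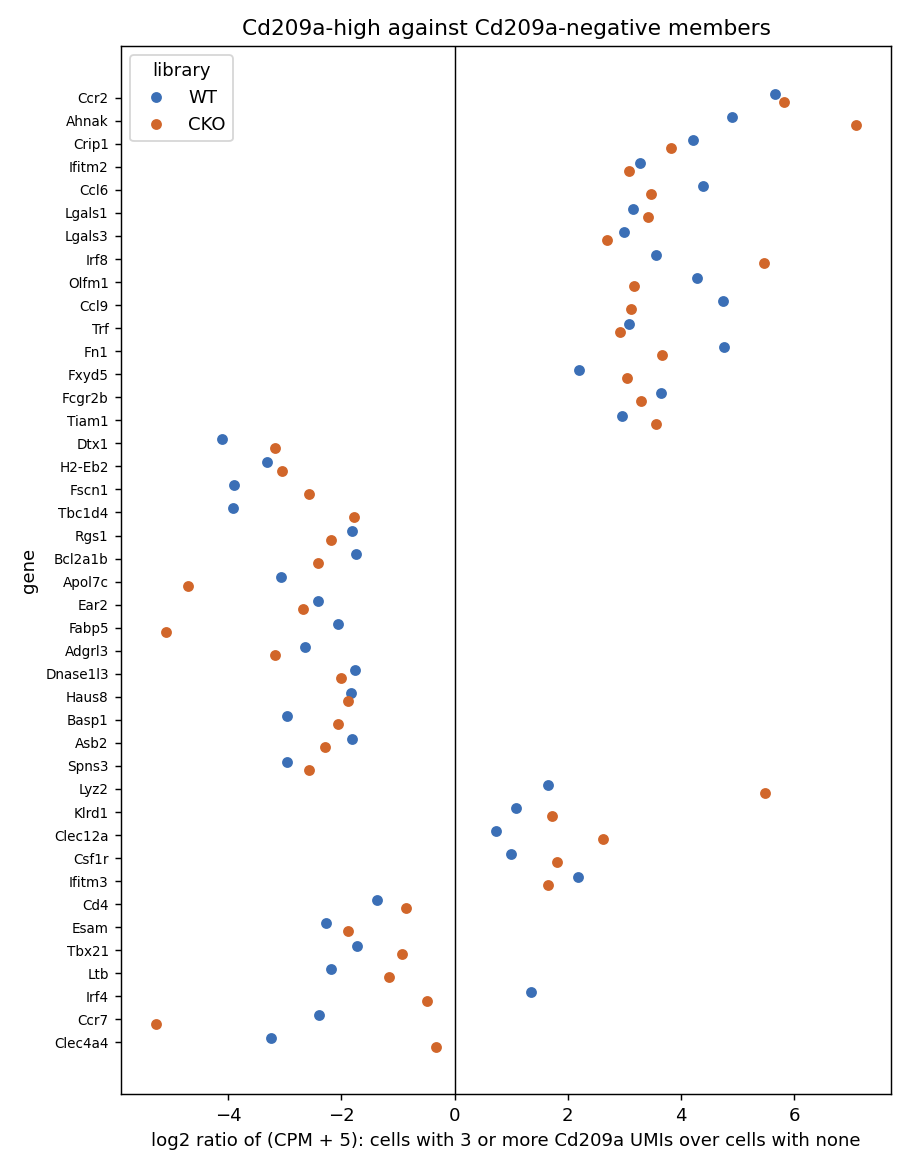
Difference between cDC2 with 3 or more Cd209a UMIs (14 WT, 17 CKO cells) and cDC2 with none (27 WT, 30 CKO cells), as log2 of the ratio of (CPM + 5), for 42 genes in each library. The first 15 genes from the top were chosen as higher and the next 15 as lower in both libraries, the last 12 are further cDC2 genes; Ccr2 stands far to the right and Dtx1 to the left in both, while Irf4 lies on opposite sides of 0.

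A smaller kind of cell had at least 2 UMIs of Ccr7 or Fscn1, the genes of the receptor for lymph node homing and of the actin-bundling protein of dendritic cell protrusions. These were 6 of 55 WT cells (10.9%, 4.11 to 22.2) and 10 of 59 CKO cells (16.9%, 8.44 to 29.0). Outside those genes they were high in Gadd45b, at 590 and 506 CPM against 38.2 and 4.40 CPM in the other members. Cd83, an activation marker, measured 432 and 675 CPM against 70.4 and 55.0 CPM, Etv3 609 and 1194 CPM against 125 and 103 CPM, and Ccl5 1277 and 1545 CPM against 251 and 468 CPM. They had little Cst3, at 531 and 961 against 1790 and 2058 CPM, and 1 UMI of Lyz2 in each library. Cd86 went apart between the libraries, at 19.7 CPM from 1 UMI in the WT and 234 CPM from 18 UMIs in the CKO cells of this kind. Ccl17, Ccl22, Il12b and Ccl19, which fully mature migratory cells express, gave no UMI in these cells.

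The share of cDC2 under this rule was close in the libraries, within counting error. They made up 0.434% (0.327 to 0.564) of WT and 0.468% (0.356 to 0.603) of CKO cells past the filter, a CKO over WT ratio of 1.08 (0.734 to 1.59). Shares move when another class changes, and T cells were far fewer in the CKO library, with 766 cells in the T cell gate against 3572. Among cells with no UMI of Cd3d, Cd3e or Cd3g, cDC2 made up 0.708% in WT and 0.529% in CKO spleen, a ratio of 0.748 (0.509 to 1.10). Both shares also rest on the clause of 7 genes at 0, which kept 69 of 184 WT and 73 of 157 CKO cells. With the Cd79a limit kept, that clause set aside 107 WT and 66 CKO cells. Neither denominator gives a number of cells per spleen. The split into cells with Clec4a4, Clec10a or neither, and into Cd209a levels, was given above and overlapped between the libraries in every interval.

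Rpa1, the targeted gene (chromosome 11, 75298166 to 75348324, minus strand), gave 15 UMIs in 12 WT cells and 12 UMIs in 11 CKO cells. Its level was 27.4 CPM in the WT and 22.6 CPM in the CKO cDC2, a ratio of 0.824 (0.352 to 1.89), so no difference was detectable at this depth. A 3′ tag that lies outside the deleted part would be read in either case, and the count therefore checks neither the label nor the deletion. Rpa2 and Rpa3, the other subunits, gave 6 against 7 and 22 against 17 UMIs.

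Among 5993 genes with at least 20 UMIs summed over both libraries, 629 (10.5%) were at least 1.5-fold higher and 640 (10.7%) at least 1.5-fold lower in the CKO library, 21.2% in all, with a median log2 ratio of 0.01. Most of these were genes with few counts. Past 1.5-fold were 32.1% of genes with 20 to 49 UMIs, 17.5% of those with 50 to 99 and 5.87% of those with 100 or more. With the counting interval also clear of 1, the shares were 3.39% higher and 3.32% lower. The counts of list members below are read against these percentages, and a share near them is not a result about the list.

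**Figure D3:**
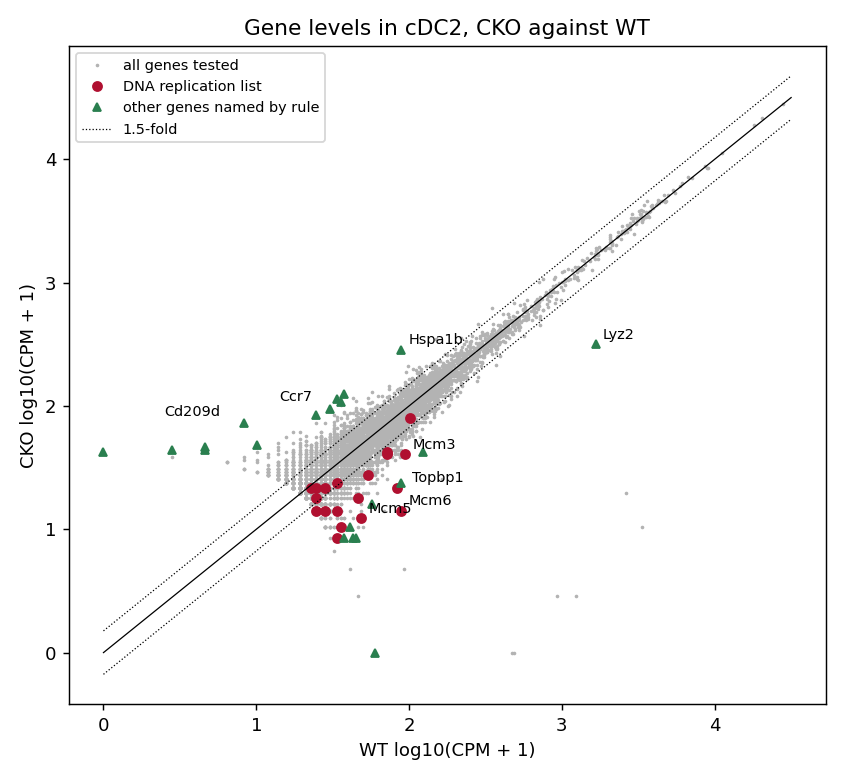
Level of each of the 5993 genes in cDC2 of the WT (x) and CKO (y) library, both as log10(CPM + 1), with 1.5-fold marked by dotted lines. The 19 tested genes of DNA replication all lie below the solid line of equal levels; Lyz2, at 1664 CPM in the WT and 314 CPM in the CKO library, lies far below it, as do grey points of neutrophil genes such as S100a8, from 1 WT cell.

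The 12 genes named as higher in the CKO library were ranked by the end of the interval nearest 1. Klra8, an NK receptor gene, gave 0 against 22 UMIs, all in 1 CKO cell, at least 7.55-fold higher against a floor of 3 counts over the WT members. Ube2c, a mitotic ubiquitin enzyme, gave 2 against 24 UMIs, and the 24 were in 1 cell as well. Socs2, a feedback inhibitor of cytokine signalling, gave 1 UMI in the WT and 23 UMIs in 4 CKO cells, a ratio of 23.7 (3.85 to 976), but with at least 3 of the 6 rule genes it had 1 WT and 0 CKO UMIs. Cd209d, a further lectin of the DC-SIGN family that pDC also express, gave 4 UMIs in 4 WT cells and 38 UMIs in 6 CKO cells. That is 7.30 against 71.4 CPM, a ratio of 9.79 (3.52 to 37.8), and without the highest cell of each library the ratio was 7.21.

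Hspa1b, Ccnd2, Srek1ip1 and Rcsd1 were found in more cells. Hspa1b, an inducible HSP70 chaperone, gave 48 UMIs in 15 WT cells and 151 UMIs in 24 CKO cells, a ratio of 3.24 (2.33 to 4.58). Ccnd2, cyclin D2, was found in 7 WT and 19 CKO cells, at 32.8 and 113 CPM. Srek1ip1 was found in 4 and 19 cells at 9.12 and 47.0 CPM, and Rcsd1 in 9 and 25 cells at 23.7 and 82.7 CPM. Without the highest cell of each library the ratios of Ccnd2, Srek1ip1 and Rcsd1 were 4.30, 7.59 and 3.47, so the higher level did not rest on 1 cell. Tspan3, a tetraspanin, measured 36.5 against 124 CPM, but its ratio was 0.971 with at least 3 of the 6 rule genes and 1.38 without cells with 2 or more Ccr7 or Fscn1 UMIs. With at least 3 of the 6 rule genes the ratios of Hspa1b and Ccnd2 were 1.96 and 1.82. Ttn, Fscn1 and Ccr7 completed the 12.

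The 12 genes named as lower included some from single cells. Mmp8, neutrophil collagenase, gave 32 UMIs in 1 WT cell and 0 in the CKO library. Lyz2 (chromosome 10, 117277331 to 117282321, minus strand) gave 912 UMIs in 16 WT cells and 167 UMIs in 18 CKO cells, a ratio of 0.189 (0.159 to 0.223). In the WT library 3 cells with 291, 270 and 241 UMIs held 802 of the 912, and the other 13 cells held 110. In the CKO library the 3 highest cells held 33, 32 and 23 UMIs. Without the 3 highest cells the WT level was 217 CPM, below the 314 CPM of all CKO members and above the 159 CPM of the CKO library without its own 3. These cells were chosen by Lyz2 itself after its values were seen. The WT cell with neutrophil genes held 31.9% of the WT UMIs, and without it the ratio was 0.268. With 9 cells marked as doublets removed it was 0.371, and among cells with at least 3 of the 6 rule genes 0.483. Other classical monocyte markers were lower too, with F13a1 at 22 and 2 UMIs and Ly6c2 at 25 and 5, while Ccr2 was at 73 and 92, and their part in the Lyz2 difference was not tested. Nenf, Slfn1, Ifitm1, Mfsd1, Tubgcp2 and Wdr76 were also among the 12. The ratio of Wdr76 was 0.234, but 0.721 with at least 3 of the 6 rule genes, and that of Tubgcp2 was 0.206, but 1.02 among cells with no Cd209a UMI. Nenf was found in 16 WT and 3 CKO cells and Mfsd1, a lysosomal transporter, in 22 and 8. The other 4, Mcm6, Topbp1, Gmnn and Mcm5, are genes of DNA replication and of its checkpoint.

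DNA replication genes were lower in the CKO cDC2. Of 31 genes in that list 30 were detected and 19 had at least 20 UMIs, and of these 13 were at least 1.5-fold lower in the CKO library and 0 higher, against 10.7% and 10.5% of all genes. Their median log2 ratio was -0.98, against 0.01 over all genes tested. The MCM proteins form the helicase ring that unwinds DNA at the fork. Mcm6 gave 48 UMIs in 16 of 55 WT cells and 7 UMIs in 4 of 59 CKO cells, 87.6 against 13.2 CPM and a ratio of 0.150 (0.0574 to 0.334). Mcm5 gave 26 UMIs in 15 cells and 6 UMIs in 4 cells, a ratio of 0.238 (0.0800 to 0.591). Mcm3, Mcm4 and Mcm7 had ratios of 0.424, 0.497 and 0.371, and Mcm2, with 7 and 5 UMIs, was too low to be tested. So each of the 5 MCM genes with enough counts was past 1.5-fold.

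The other tested genes of the replication machinery showed the same direction. Gmnn (chromosome 13, 24751845 to 24761923, minus strand), which encodes geminin, the inhibitor of origin licensing, gave 45 UMIs in 18 WT cells and 11 UMIs in 7 CKO cells, 82.1 against 20.7 CPM. Gins2, of the helicase activator complex GINS, gave 18 and 4 UMIs, and Lig1, the ligase that joins Okazaki fragments, 19 and 5. The clamp loader genes Rfc1, Rfc2, Rfc3 and Rfc4 had ratios of 0.555, 0.581, 0.401 and 0.555. Of these 4, only Rfc1 had an interval wholly below 1. Pcna, the sliding clamp, was less different, at 100 against 79.0 CPM in 27 and 29 cells, a ratio of 0.787 (0.514 to 1.20). Cdt1, the licensing factor that geminin binds, gave 11 UMIs in 8 WT cells and 0 in the CKO library, and Tyms, thymidylate synthase, 11 and 1. Both were under the minimum of 20 UMIs. Rrm2 and Gins1, also under it, went the other way. Rrm2 was found in 2 CKO cells and no WT cell, and Gins1 in 3 WT and 5 CKO cells.

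**Figure D4:**
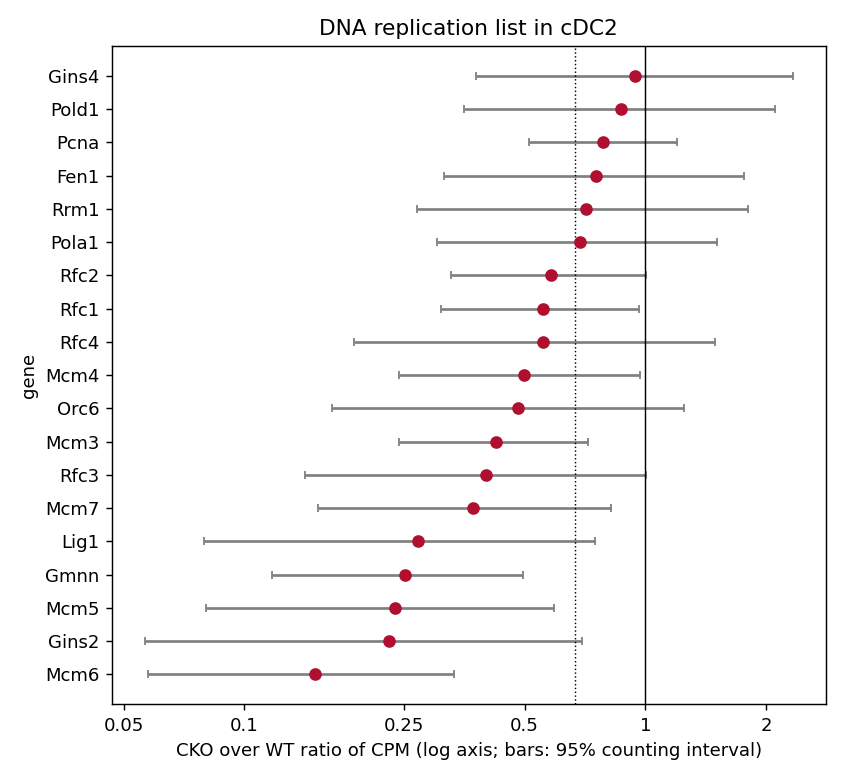
CKO over WT ratio of CPM in cDC2 for the 19 genes of DNA replication with at least 20 UMIs, on a log axis, with 95% counting intervals; the dotted line marks 1.5-fold lower. All 19 points lie below 1 and 13 lie left of the dotted line, from Mcm6 at 0.150 to Rfc2 at 0.581.

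Promoters of Mcm6, Mcm5, Mcm3 and Mcm7 are shown because these genes lay lower together and because textbook E2F sites control many S phase genes. RefSeq promoter windows, from 250 bases before to 50 after the start of the transcript, were taken on GRCm38.p6 for Mcm6 (chr1:128359656-128359955, minus strand), Mcm5 (chr8:75109259-75109558, plus strand), Mcm3 (chr1:20820263-20820562, minus strand), Mcm7 (chr5:138171834-138172133, minus strand) and, as a gene of the list that did not pass 1.5-fold, Pcna (chr2:132253131-132253430, minus strand). Capitals mark matches to TTTCCCGC, TTTCGCGC, TTTGCCGC or TTTGGCGC on either strand, and overlapping matches run together.
Mcm6: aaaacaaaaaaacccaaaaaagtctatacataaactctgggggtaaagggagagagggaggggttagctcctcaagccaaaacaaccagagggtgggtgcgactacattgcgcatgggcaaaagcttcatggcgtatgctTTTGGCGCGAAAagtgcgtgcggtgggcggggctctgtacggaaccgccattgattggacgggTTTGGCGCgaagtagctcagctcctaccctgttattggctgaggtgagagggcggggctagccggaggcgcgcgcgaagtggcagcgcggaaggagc
Mcm5: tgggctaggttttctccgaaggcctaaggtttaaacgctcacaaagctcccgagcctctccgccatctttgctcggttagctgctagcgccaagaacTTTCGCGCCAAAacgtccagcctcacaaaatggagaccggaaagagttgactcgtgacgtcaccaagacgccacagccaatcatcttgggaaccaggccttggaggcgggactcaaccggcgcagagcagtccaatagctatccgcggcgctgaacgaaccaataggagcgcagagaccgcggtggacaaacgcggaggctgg
Mcm3: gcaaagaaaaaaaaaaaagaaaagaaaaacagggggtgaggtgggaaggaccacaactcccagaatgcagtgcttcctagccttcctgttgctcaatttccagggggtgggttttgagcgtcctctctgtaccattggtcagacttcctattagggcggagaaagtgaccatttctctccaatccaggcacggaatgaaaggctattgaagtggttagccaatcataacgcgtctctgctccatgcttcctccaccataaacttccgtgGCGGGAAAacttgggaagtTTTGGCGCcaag
Mcm7: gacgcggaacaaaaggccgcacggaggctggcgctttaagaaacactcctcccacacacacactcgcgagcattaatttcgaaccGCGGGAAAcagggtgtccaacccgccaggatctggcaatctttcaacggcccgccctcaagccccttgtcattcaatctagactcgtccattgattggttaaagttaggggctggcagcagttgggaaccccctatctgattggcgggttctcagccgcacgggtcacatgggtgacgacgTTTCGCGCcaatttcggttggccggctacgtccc
Pcna: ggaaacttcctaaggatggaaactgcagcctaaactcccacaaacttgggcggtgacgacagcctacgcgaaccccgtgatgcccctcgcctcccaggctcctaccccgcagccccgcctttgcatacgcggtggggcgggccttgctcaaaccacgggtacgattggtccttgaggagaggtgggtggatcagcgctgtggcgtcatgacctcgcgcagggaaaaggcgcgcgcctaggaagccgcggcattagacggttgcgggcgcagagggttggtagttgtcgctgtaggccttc
The windows of Mcm6, Mcm5, Mcm3 and Mcm7 held 3, 2, 2 and 2 matches and that of Pcna 0, which says only that these letters are not in that window. A second RefSeq entry of Mcm7 (chr5:138171217-138171516, minus strand) held 0 matches. So did the window of Mcm2, which was too low to be tested, and those of Rfc1 and Rfc4, which were past 1.5-fold. A gene with several entries was counted by the entry with the most matches. Over all 32851 promoter windows in the table, 744 (2.26%) held at least 1 match, which were windows of 704 of 27025 genes. Of the 24 genes of the replication list with an entry, 12 did, among them 6 of 9 genes past 1.5-fold and 2 of the 5 other tested genes. A match describes the sequence and is no evidence of binding.

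The difference in replication genes lay mostly in the cells with the highest counts. Summed over the list, WT members held 575 UMIs and CKO members 271, or 1049 against 509 CPM. In the WT library the lowest, median and highest member held 0, 4 and 80 UMIs of the list, and in the CKO library 0, 3 and 42. The middle of the groups thus overlapped, with a median of 495 CPM in WT and 397 CPM in CKO cells, and the upper ends differed. There were 15 WT and 5 CKO cells with 10 or more UMIs of the list, and the 5 highest cells held 48.3% of the WT and 35.1% of the CKO UMIs. After thinning every cell to 2000 UMIs, 13 of 55 WT cells (23.6%, 13.2 to 37.0) and 5 of 59 CKO cells (8.47%, 2.81 to 18.7) had 3 or more UMIs of the list. At 1 or more the cells numbered 32 and 30.

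Without the WT cell with neutrophil genes the list median was -0.93 and 14 of 19 members were past 1.5-fold, and with the 9 WT cells marked as doublets removed it was -0.80 and 12 of 15. Among cells with no Cd209a UMI it was -1.51, with 7 of 8 tested members lower. The same list had a median log2 ratio of 0.32 in cDC1, 0.26 in pDC, -0.10 in non-classical monocytes, 0.32 in classical monocytes, 0.09 in B cells, 0.29 in NK cells and 0.19 in T cells. The cells of all classes come from the same 2 libraries, and the difference between classes was not tested.

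Genes of cycling cells gave a mixed picture. Of 24 cycling genes 8 were tested, 3 of them at least 1.5-fold higher in the CKO library (Mki67, Top2a and Ube2c) and 1 lower (Stmn1). The highest CKO cell of each gene held 60.7% of the Mki67, 79.3% of the Top2a and all of the Ube2c UMIs there. Mki67 itself was found in 8 WT and 9 CKO cells. After thinning, 0 of 55 WT cells (up to 6.49%) and 1 of 59 CKO cells had UMIs in at least 3 cycling genes, and before thinning 3 and 2 did. Of 17 genes of RPA and the ATR checkpoint, 9 were tested, 0 were higher and 3 lower. Topbp1 (chromosome 9, 103305215 to 103350428, plus strand), the activator of ATR, gave 48 UMIs in 21 WT cells and 12 UMIs in 9 CKO cells, 87.6 against 22.6 CPM, a ratio of 0.258 (0.125 to 0.492). Tipin, of the fork protection complex, and Cdc25a, the phosphatase that the checkpoint targets, had ratios of 0.328 and 0.606. Atr gave 15 and 16 UMIs, and Rad17, the clamp loader of the checkpoint, 23 and 23.

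Maturation and migration genes were higher in the CKO library, and the difference lay in few cells. Of 24 genes in that list 16 were tested, 5 of them at least 1.5-fold higher and 1 lower, with a median log2 ratio of 0.49. Ccr7 (chromosome 11, 99144196 to 99155077, minus strand) gave 16 UMIs in 6 WT cells and 50 UMIs in 9 CKO cells, 29.2 against 94.0 CPM, a ratio of 3.22 (1.80 to 6.06). Fscn1 (chromosome 5, 142960343 to 142973185, plus strand) gave 19 UMIs in 10 WT cells and 57 in 12 CKO cells, a ratio of 3.09 (1.81 to 5.50). The numbers of cells with these genes were thus close, and the UMIs per cell were higher in the CKO library. Ccl5, a chemokine for T cells, measured 347 against 624 CPM in 31 and 36 cells, a ratio of 1.80, and Tmem123, a mucin-like membrane protein, 115 against 205 CPM. Socs2 was the other gene past 1.5-fold. Relb, Nfkb2, Il4i1, Samsn1, Apol7c and Epsti1 had ratios between 0.986 and 1.12. Anxa3, at 36.5 against 20.7 CPM, was the gene that was lower.

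Without the 6 WT and 10 CKO cells that had 2 or more UMIs of Ccr7 or Fscn1, the list median was 0.0050, with 1 of 11 tested members higher. Those cells were set aside by genes of the list, so the drop is partly built in. Among cells with at least 3 of the 6 rule genes, 35 in WT and 29 in CKO spleen, the median was -0.29 and the ratio of Ccr7 was 0.902 and of Fscn1 0.631. The list's direction thus differed with the number of rule genes asked for. In single cells the list's lowest, median and highest counts were 6, 20 and 96 UMIs in WT and 6, 21 and 197 in CKO cells. The libraries overlapped nearly throughout, apart from the cells at the top.

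**Figure D5:**
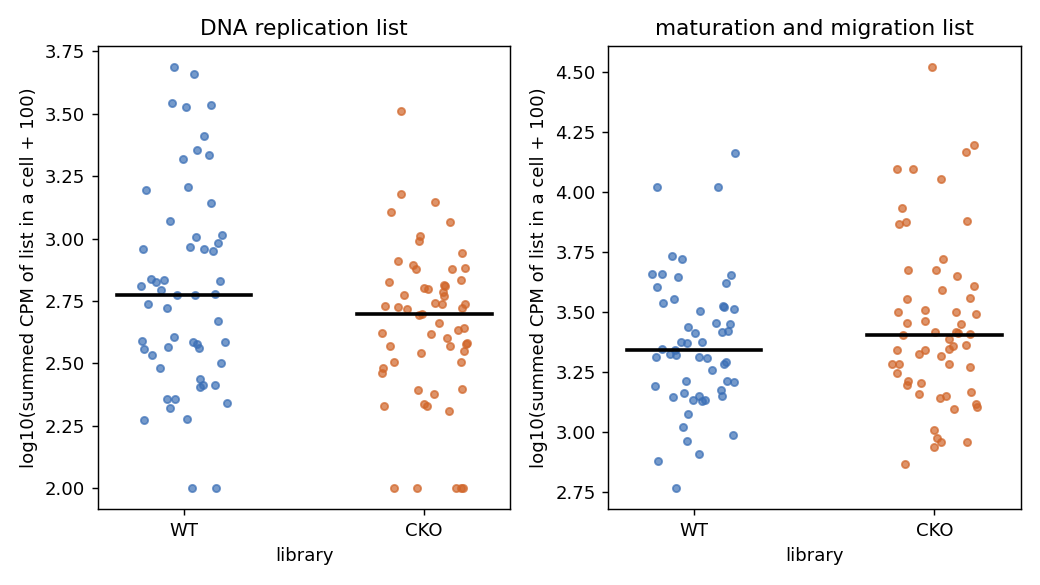
Summed CPM of the DNA replication list (left) and of the maturation and migration list (right) in each cDC2, as log10(CPM + 100), with 55 WT and 59 CKO cells and the median as a bar. The medians lie close, at 495 and 397 CPM on the left and 2106 and 2453 CPM on the right, and the WT library has more cells at the top on the left, the CKO library on the right.

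The factors that build and hold the cDC2 lineage differed little. Of 22 transcription factors 20 were tested, 3 were at least 1.5-fold higher and 0 lower. Rbpj, the DNA-binding partner of Notch, measured 93.1 against 154 CPM in 29 and 35 cells, a ratio of 1.66 (1.15 to 2.40). Etv3 measured 170 against 261 CPM, and Irf8 31.0 against 73.3 CPM, of which 71.8% of the CKO UMIs came from 1 cell. Irf4, Relb, Notch2, Bcl6, Zbtb46, Bcl11a and Etv6 had ratios between 1.03 and 1.08. Klf4, a factor of a cDC2 fraction, and Zeb2, which holds back the cDC1 fate, had ratios of 1.43 and 1.41. Of 16 Notch2-dependent genes 10 were tested, and Cd81, a tetraspanin, and Tnfrsf11a, the receptor RANK, were at least 1.5-fold higher. Dtx1, Hes1 and Clec4a4 had ratios between 1.03 and 1.05, Adgre5 measured 186 CPM in both libraries, and Esam, with 10 and 14 UMIs, had 1.44 (0.596 to 3.63). Genes of the monocyte-like fraction gave 16 tested of 20, with 0 higher and 2 lower, Lyz2 and Clec10a. Clec10a itself is part of the rule, at 80.3 against 35.7 CPM in 6 and 4 cells, and 47.7% of its WT UMIs came from 1 cell. Ccr2, Cx3cr1, Clec12a, Itgam and Ahnak had ratios between 0.872 and 1.30.

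Antigen presentation on MHC class II differed little between the libraries. Of 20 genes 19 were tested, 0 were at least 1.5-fold higher and 1 was lower, with a median log2 ratio of -0.01. The list summed to 49599 CPM in the WT and 49615 CPM in the CKO library. H2-Ab1, a beta chain of the class II molecule, measured 8881 and 8501 CPM, and Cd74, the invariant chain, 18060 and 18851 CPM. H2-Aa, on which the rule sets a minimum, measured 8624 and 8785 CPM. Ciita, the master regulator of these genes, had a ratio of 1.14 (0.952 to 1.37). Some endosomal enzymes stood a little lower, with Ctsz at 0.709, Ctsb at 0.716 and Ifi30, a thiol reductase, at 0.802. Others were even, with Ctss at 1.02, Ctsh at 0.975 and Ctsd at 1.08. The 1 member past 1.5-fold was Lgmn, asparagine endopeptidase, from 22 and 10 UMIs. Of 21 genes of MHC class I and cross-presentation 20 were tested, 0 higher and 3 lower. Tap1, a peptide transporter chain, measured 153 against 95.9 CPM (0.625, 0.433 to 0.896), Psmb10, an immunoproteasome subunit, 172 against 109 CPM, and Tapbpl had 23 and 13 UMIs. H2-K1, H2-D1 and B2m had ratios of 1.05, 0.993 and 1.02.

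Lists of signals to T cells and to other leukocytes differed in how many members were past 1.5-fold. Of 20 costimulatory and inhibitory genes 12 were tested, with Cd86 1.68 times higher (0.920 to 3.15) and Vsir, the inhibitory ligand VISTA, at 0.658 (0.402 to 1.06). Cd80, Cd40, Icosl and Cd274 had ratios between 0.704 and 1.08. None of 18 tested NF-κB targets and none of 6 tested cytokines was past 1.5-fold, and Il12b, Il12a, Il6 and Il10 gave no UMI in either library. Of 15 chemokines 6 were tested, with Ccl5, Cxcl16 and Cxcl10 higher and Ccl3 and Ccl9 lower. Of the 14 CKO UMIs of Cxcl10, in 2 cells, 92.9% came from 1 cell, and of the 24 of Cxcl16, in 5 cells, 12 came from 1 cell. Ccl3 gave 17 UMIs in 7 WT cells and 4 UMIs in 2 CKO cells. Of 19 chemokine and homing receptors 7 were tested, with Ccr7 among those higher and Cxcr4 lower. Gpr183, the oxysterol receptor that places cDC2 at the edge of the white pulp, measured 208 and 164 CPM, a ratio of 0.786 (0.588 to 1.05).

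Receptors of growth factors, microbes and antibodies were mostly even too. Of 26 growth factor and cytokine receptors 23 were tested, with Tnfrsf11a higher and Ifnar2 and Tnfrsf1b lower. Flt3, the receptor that dendritic cells depend on and a gene of the rule, had a ratio of 1.22, Csf2rb 1.26 and Kit 1.16. Ifnar2, a chain of the type I interferon receptor, measured 168 against 107 CPM in 39 and 30 cells, a ratio of 0.638 (0.450 to 0.898). Of 26 pattern receptors 11 were tested, with Nlrp3, the inflammasome sensor, higher at 36.5 against 67.7 CPM in 13 and 25 cells, and Cgas, the sensor of cytosolic DNA, lower from 23 and 12 UMIs. Of 15 Fc and complement receptors 6 were tested and none was past 1.5-fold. Of 20 lectin and uptake receptors 10 were tested, with Cd209d higher and Clec10a and Clec4a3 lower. Clec4a3, a neighbour of Clec4a4 in the lectin family, gave 66 and 34 UMIs in 23 and 17 cells, a ratio of 0.531 (0.340 to 0.814), while Clec4a4 gave 16 and 16. These family members are close in sequence, and how reads shared among them were counted is not given in the sources used here.

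Interferon genes had calls in both directions. Of 36 type I interferon response genes 29 were tested, 2 were higher (Usp18 and Rsad2) and 2 lower (Rtp4 and Zbp1), with a median log2 ratio of 0.22. Usp18, a brake on the interferon receptor, gave 19 UMIs in 13 WT cells and 42 UMIs in 23 CKO cells, a ratio of 2.28 (1.30 to 4.15). Isg15, Ifit3 and Bst2 had ratios of 1.10, 0.976 and 0.963. Of 22 interferon gamma genes 11 were tested, with Gbp9 and Cxcl10 higher and Gbp7 lower. Of 15 interleukin 4 and retinoid genes 4 were tested and 1 was lower, Chil3, whose 50 WT UMIs came from 1 cell.

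Among stress genes Hspa1a and Hspa1b, which encode inducible HSP70 chaperones, and Dnajb1 were higher in the CKO library. Of 15 heat shock genes 12 were tested, 3 were higher and 0 lower. Hspa1a gave 82 UMIs in 14 WT cells and 184 UMIs in 27 CKO cells, a ratio of 2.31 (1.77 to 3.04), and Dnajb1, a cochaperone, 18 UMIs in 14 cells and 43 UMIs in 22 cells. Hspa8, Hsp90ab1, Hspa5 and Hspd1, which cells make without stress, had ratios between 0.962 and 1.10. Such genes also respond to cell handling, which the labels do not describe for each library, and its part was not tested. Of 23 immediate early genes 21 were tested, with Atf3 and Dusp2 higher and Egr1 and Fosb lower. Egr1 measured 564 against 365 CPM in 38 and 27 cells, a ratio of 0.647 (0.538 to 0.776).

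Survival and metabolism lists gave few calls. Of 18 p53 targets 9 were tested, 1 was higher (Sesn1) and 0 lower, and Cdkn1a, the p53-induced cell cycle inhibitor, gave 9 and 6 UMIs. Of 21 apoptosis genes 17 were tested, with Birc2 and Bak1 higher and Bcl2a1a lower. Birc2, an inhibitor of apoptosis protein, measured 56.6 against 130 CPM in 22 and 32 cells, a ratio of 2.29 (1.48 to 3.63). Bcl2a1a, Bcl2a1b and Bcl2a1d are near-identical copies, so their separate counts are uncertain. Of 16 glycolysis genes 12 were tested, with Hk1 and Hk2 higher, and of 15 genes of sterols and lipid export 8 were tested, with Mylip among those higher and Apoe lower at 179 against 99.6 CPM. All 13 mitochondrially encoded genes were tested, and 11 of them lay between 1.12 and 1.34, with mt-Nd6 above and mt-Atp8 below these. The median mitochondrial share of a member was 2.06% in WT and 2.34% in CKO spleen.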

How the data were processed

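Whole UMI counts per gene and barcode, not normalized, were deposited by the authors for each library. The submitters' processing notes list the build mm10 with Cell Ranger 5.0.0 and Seurat 4.0.3, and the matrix header gives Cell Ranger 6.0.2. Members, gene lists and named-gene rules were chosen with earlier results of these data known. Counts were summed over the members of each library. Ratios of CPM carry exact conditional binomial intervals, shares exact Clopper-Pearson ones. A gene was called at 1.5-fold with at least 20 summed counts, and list medians used log2 ratios with a pseudocount of 1 CPM. Named genes needed 20 CPM and 20 counts in 1 library and 5% of the level of the highest class. They were ranked by the end of the interval nearest 1, 12 each way, without receptor segments, mitochondrial, ribosomal, sex-linked or unnamed genes. Other classes were gated by UMI rules. A Treml4 clause in the cDC1 gate was dropped after it left few cells. Doublets were scored with Scrublet (scanpy 1.11.5) and marked at the quantile of the expected rate (10.1% in both libraries). Cells with 3 or more Cd209a UMIs, or 2 or more of Ccr7 or Fscn1, were split off after the data were seen. Intervals were tested on simulated counts with counting (Poisson) error only, the assumption they are built on. Those counts held no spread between cells, so the intervals were not tested for it. Some list members are not reported here. Promoters came from RefSeq (GRCm38.p6) and gene positions from GENCODE on GRCm38. Python 3.11.15, numpy 2.4.6, scipy 1.17.1 and pandas 2.3.3 were used.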

Additional observations from a re-analysis of the deposited data

How the results depend on the processing

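With 1 library per genotype no replicate could be left out. No paired analysis was possible because each genotype has 1 library and the labels carry no replicate numbers. The ratio of cDC2 shares lay between 0.748 and 1.28 over 8 alternatives, with an interval that held 1 in each. None of these changed the clause of 7 genes at 0. Counts of genes past 1.5-fold moved with the minimum count, to 186 higher and 190 lower at 50 or more counts and to 1648 and 1596 at 5 or more. The median of the DNA replication list stayed negative under all 12 alternatives, from -0.77 with each cell weighted equally to -1.51 among cells with no Cd209a UMI. An H2-Aa minimum of 10 UMIs and leaving out cells under 2000 UMIs removed no member, so these alternatives could not change a value. The maturation list changed to -0.29 with at least 3 of 6 rule genes, 0.85 among cells with no Cd209a UMI and 0.0050 without cells with 2 or more Ccr7 or Fscn1 UMIs. The RPA and ATR list was at -1.91 with 50 or more counts, which left 1 member. With at least 3 of 6 rule genes the ratios of Socs2, Tspan3, Fscn1 and Ccr7 turned to 0, 0.971, 0.631 and 0.902. That of Fscn1 was 0.874 without cells with 2 or more Ccr7 or Fscn1 UMIs, and that of Tubgcp2 was 1.02 among cells with no Cd209a UMI. Without the 3 WT cells with the most Lyz2 UMIs the ratio of Lyz2 was 1.45, and without the 3 highest in each library 0.732. The cause of these changes was not tested, but fewer cells entered each. Of all list medians under alternatives, 326 kept their place and 10 moved. The 326 include the medians under the H2-Aa and 2000 UMI alternatives, which could not move. The alternatives that leave out the WT cell with neutrophil genes, the highest Lyz2 cells, the cells with a Cd209a UMI or the cells with Ccr7 or Fscn1 UMIs were chosen after seeing the data. Depth limits genes under about 50 UMIs, where 32.1% of genes with 20 to 49 UMIs were past 1.5-fold.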

Other observations

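Cells that the rule set aside for a UMI of Xcr1, Clec9a, Ace, Treml4, Siglech, Cd3d or Cd3e, but that met its gene and H2-Aa clauses, numbered 107 in WT and 66 in CKO spleen once the limit on Cd79a was kept, more than the members themselves. Clec9a was the most frequent reason, with 63 WT and 29 CKO cells, followed by Treml4 with 42 and 22 and Siglech with 35 and 14. These cells were not without cDC2 genes. Cd209a was found in 60 WT and 43 CKO cells, 56.1% and 65.2% of them, and Clec10a in 34 and 18, 31.8% and 27.3%, against 10.9% and 6.78% of members. Clec9a and Cd209a met in 38 WT and 17 CKO cells, and Clec9a and Clec10a in 22 and 8. Cst3 measured 9389 and 6852 CPM there, above the 1673 and 1899 CPM of members. So most cells with a Clec10a UMI that met the other clauses lay outside the members, and the Clec10a cells described above are a fraction of them.

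Cells gated as pDC, 27 in WT and 24 in CKO spleen, carried lectins of the cDC2 rule as well. Cd209a measured 222 and 140 CPM there and Clec10a 234 and 163 CPM. Cd7 stood at 524 and 666 CPM and Klrd1 at 278 and 267 CPM, while H2-Aa was at 2461 and 2174 CPM, under the 8624 and 8785 CPM of cDC2.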
